A study of Mus musculus with 12 samples.

Results

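The enzymes that assemble triglyceride in the liver were followed over the 4 genotype and diet groups of this study. They are Gpam, Gpat4, Agpat1, Agpat2, Agpat3, Lpin1, Lpin2, Dgat1, Dgat2 and Mogat1, and each was found as the row of the FPKM table whose Ensembl identifier maps to that mouse symbol. All 10 were present among the 35275 genes of the table. FPKM is the number of fragments mapped to a gene, scaled by the length of the gene and by the sequencing depth, so levels of different genes can be set side by side. All 10 also passed the filter for testing, an average of 0.5 FPKM or more across all 12 libraries, which 12466 genes passed. Mogat1 lay nearest to that limit, at a mean of 0.561.

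Triglyceride is built on glycerol 3-phosphate in the Kennedy pathway. Glycerol-3-phosphate acyltransferases (GPAT) add the first fatty acid to give lysophosphatidate, acylglycerol-phosphate acyltransferases (AGPAT) add the next to give phosphatidate, and the lipins remove the phosphate to give diacylglycerol. Diacylglycerol acyltransferases (DGAT) then add the last fatty acid, while monoacylglycerol acyltransferases (MGAT) form diacylglycerol from monoacylglycerol by a separate route. Phosphatidate and diacylglycerol are also the precursors of phospholipids, phosphatidylcholine among them, so the same intermediates feed membranes, lipid droplets and secreted lipoproteins.

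The groups were male wild-type (WT) mice on chow, Pctp-/- mice on chow, WT mice on the methionine and choline deficient (MCD) diet and Pctp-/- mice on the MCD diet, with 3 mice in each. Pctp-/- mice lack PC-TP, a protein that binds and transfers phosphatidylcholine, in the whole body and not in the liver alone. The MCD diet withholds precursors of phosphatidylcholine and is used to induce fat accumulation and injury of the liver. RNA came from whole liver. The age, strain and fasting state of these mice are not given in the sources used here. Nor are the length of the diet and the time of day of collection. Whole liver RNA holds several cell types, and in such samples fewer cells of a type and less RNA per cell cannot be told apart.

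Each library came from a different mouse and held 30486576 to 55179468 uniquely mapped reads. Pctp (ENSMUSG00000020553), the targeted gene, was measured at 2.25, 1.21 and 2.65 FPKM in WT mice on chow and at 0.566, 0.364 and 0.33 FPKM in Pctp-/- mice on chow. With the MCD diet it was at 7.9, 5.1 and 3.61 FPKM in WT and at 0.156, 0.329 and 0.293 FPKM in Pctp-/- mice, so every library sat on the side of its label. The log2 difference between the genotypes, of FPKM + 1, was -1.07 on chow (limma adjusted p = 0.15) and -2.33 on the MCD diet (adjusted p = 6.2e-04). The share of reads that mapped was 82.25 to 83.74% in the chow libraries and 92.85 to 94.48% in the MCD libraries. The diets were thus also 2 sets of libraries that differed in read quality, and diet and sequencing set cannot be told apart. The genotypes were compared within a set. Hepatocyte markers were abundant in every library, with 7 of the 8 listed genes in the table and a summed level of 46100 to 52000 FPKM on chow and 62900 to 85100 FPKM on the MCD diet, without overlap. Of these 7 genes 3 were called higher and 1 lower on the MCD diet in each genotype, and their part in the results was not tested. The shares of all genes called by diet were 57.0% in WT and 50.3% in Pctp-/- mice.

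The catalytic motifs of 9 of the 10 enzymes are shown because they display which members share a motif. Members that share one can act at different steps. The acyltransferases of the first and second step share a histidine and an aspartate, separated by 4 residues, and the codons of these residues are in capitals. The lipins share an acidic phosphatase motif, of which the codons of both aspartates and of the threonine are in capitals. Dgat2 and Mogat1, members of one protein family, share a histidine, proline, histidine and glycine motif, whose codons are in capitals. Dgat1 belongs to an unrelated family and carries none of these motifs. Sequences are coding exon sequence of GRCm38 (mm10), written 5′ to 3′ on the strand of the gene, from the principal GENCODE M21 transcript. In Gpam the spacing matched at 2 places, and the match nearer the start of the coding sequence is shown.
Gpam (chr19:55087468-55087497, minus strand, exon 8 of 21): ccggtgCACagatcccacattGACtacctg
Gpat4 (chr8:23180663-23180692, minus strand, exon 7 of 13): gctaacCATacatcccccattGATgtgatc
Agpat1 (chr17:34610975-34611004, plus strand, exon 3 of 7): tccaacCACcagagttccctcGACctgctt
Agpat2 (chr2:26597205-26597234, minus strand, exon 2 of 6): tctaatCACcagagcatcctgGACatgatg
Agpat3 (chr10:78285034-78285063, minus strand, exon 4 of 10): ctcaacCACaacttcgagatcGACttcctt
Lpin1 (chr12:16547488-16547514, minus strand, exon 16 of 21): atctcaGATatcGATgggACCatcaca
Lpin2 (chr17:71243408-71243434, plus strand, exon 15 of 20): atctctGACatcGACggaACAataacc
Dgat2 (chr7:99158969-99158992, minus strand, exon 5 of 8): ggatacCACCCCCATGGCatcatg
Mogat1 (chr1:78523619-78523642, plus strand, exon 3 of 6): ggatttCACCCTCATGGAatattc

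RefSeq promoter windows on GRCm38.p6, which run from 250 bases before a start site to 50 after it, were held for 7 of the 10 members, in 11 windows. They were searched on both strands for the E-box CACGTG, which clock and bHLH factors recognise, the nuclear receptor half-site AGGTCA and the sterol regulatory element TCACNCCAC. AGGTCA was found in the Lpin1 window, 74 bases before the start site, in 1 of 2 Agpat1 windows and in 1 of 2 Gpam windows, and 16.3% of all 32851 windows hold it. CACGTG was found in 1 of 3 Lpin2 windows, against 7.15% of all windows, and TCACNCCAC in none, against 1.24%. A match is a description of the letters and not a site of binding. The 250 bases before the start of Lpin1, the member with the largest difference between the diets, are shown with AGGTCA in capitals.
Lpin1 upstream (chr12:16610967-16611216, minus strand): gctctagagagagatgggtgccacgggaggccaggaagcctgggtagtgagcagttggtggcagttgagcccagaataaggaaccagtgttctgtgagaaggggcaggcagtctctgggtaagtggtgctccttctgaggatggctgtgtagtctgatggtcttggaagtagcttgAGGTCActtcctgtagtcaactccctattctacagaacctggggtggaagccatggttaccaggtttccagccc

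Dgat2, one of the enzymes of the last step, had the highest FPKM of the 10 genes in every group, with a mean on chow of 391 ± 87.3 for WT mice (SD, n = 3) and of 312 ± 28.6 for Pctp-/- mice. Agpat2 was next in every group, and the ranges of Dgat2 and Agpat2 did not overlap in any of them. At the other end, Agpat1 at 6.24 to 8.87 FPKM and Mogat1 at 0.191 to 0.747 FPKM (group means) were the lowest members in all 4 groups. On chow the middle of the order was crowded. In WT mice the ranges of Lpin1 (61.6 ± 11.7, SD, n = 3), Agpat3 (53.6 ± 6.31), Lpin2 (50.3 ± 12.9) and Gpat4 (47.4 ± 1.15) overlapped from each to the next, as did those of Gpat4, Lpin2, Gpam, Lpin1 and Dgat1 in Pctp-/- mice. On the MCD diet Lpin1 stood eighth in both genotypes, below Dgat1, and the ranges of Lpin1 and Dgat1 overlapped. The plot of FPKM per mouse shows these levels.

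**Figure D1:**
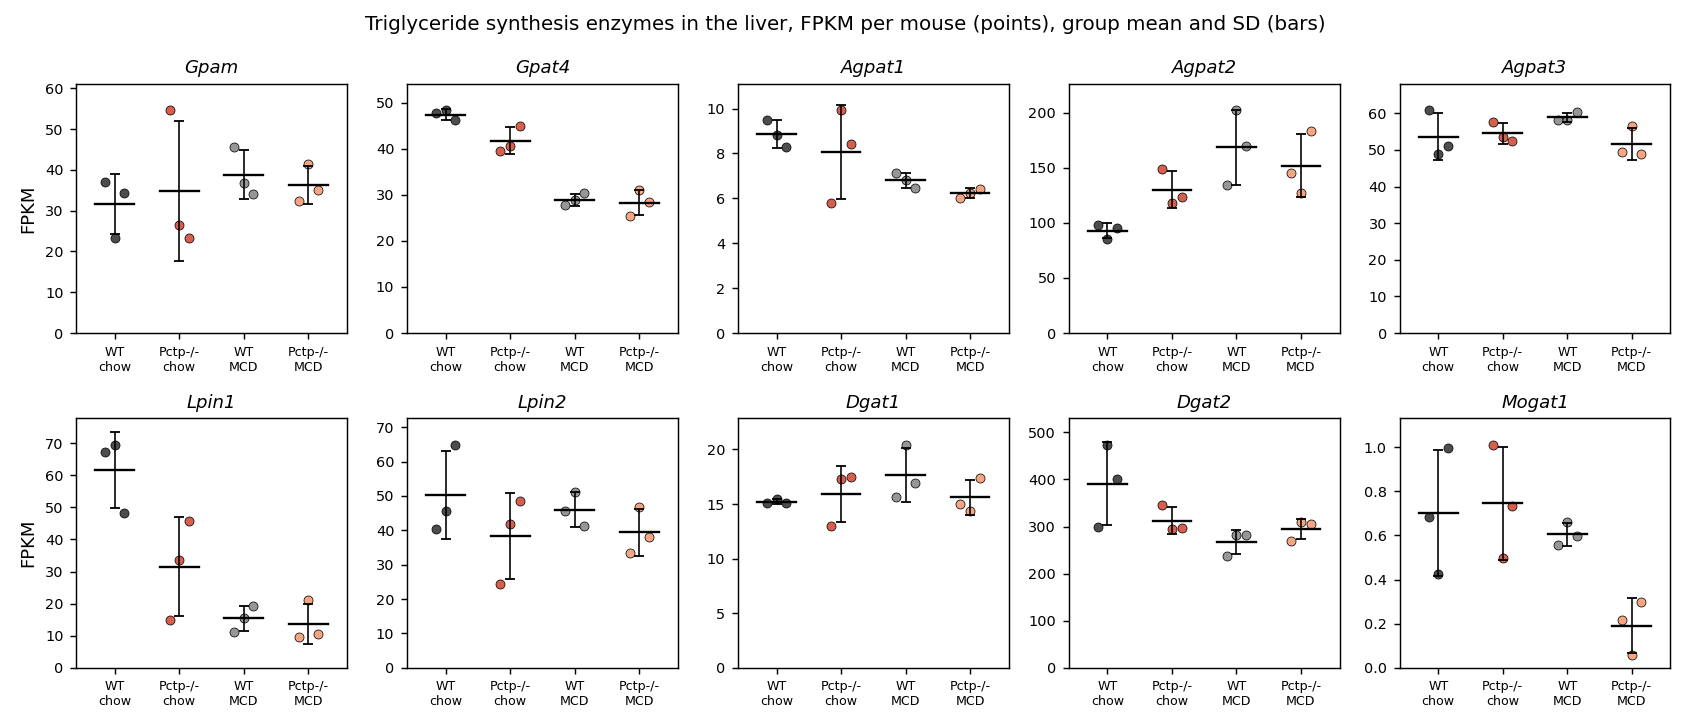
FPKM of the 10 enzymes in each of the 12 mice, by group, with 1 panel per gene and axes that start at 0. Points are mice, horizontal bars the mean and vertical bars the SD (n = 3). Lpin1 falls from 48.1 to 69.4 FPKM in WT mice on chow to 11.3 to 19.2 on the MCD diet, and Mogat1 is lowest in Pctp-/- mice on the MCD diet.

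The first question was what the MCD diet did to the pathway in WT livers. Of the 10 members, 4 passed the test. Lpin1, Gpat4 and Dgat2 fell and Agpat2 rose, so that enzymes of each of the 4 steps changed and not all in one direction. The test was limma on log2(FPKM + 1), and a gene was called at a Benjamini-Hochberg adjusted p under 0.05. All fold changes are on that log2 scale, which understates changes of genes with low FPKM. Of all 12466 genes tested, 57.0% were called, 34.5% higher and 22.5% lower on the MCD diet, so 4 of 10 members is no larger a share than that of genes in general. The median log2 difference was -0.09 over the members and 0.11 over all genes tested. After median-of-ratios scaling of the libraries the median of all genes was -0.0013, and the calls split into 3546 higher and 3527 lower in place of 4300 and 2810. Under that scaling the 4 members were called in the same directions, with differences of -2.08 for Lpin1, -0.83 for Gpat4, -0.67 for Dgat2 and 0.69 for Agpat2.

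The same diet called 3 members in Pctp-/- livers, all lower on the MCD diet. They were Lpin1, Gpat4 and Mogat1. Of all genes tested, 50.3% were called, 26.0% higher and 24.4% lower. The median log2 difference was -0.08 over the members and 0.04 over all genes. The plot of the diet effects sets both genotypes side by side.

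**Figure D2:**
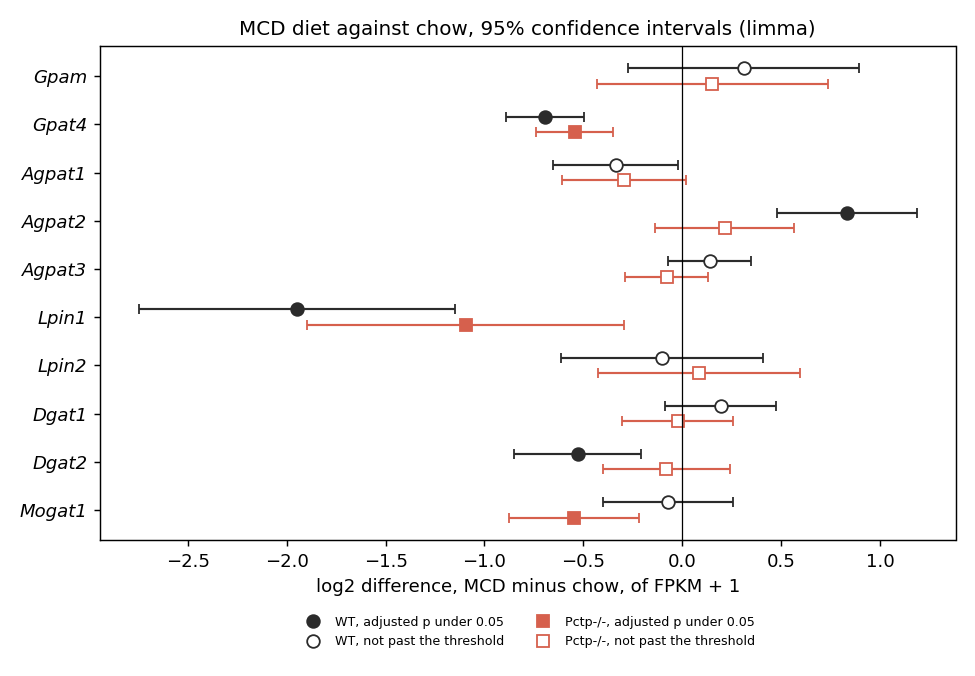
Difference between MCD and chow mice in log2(FPKM + 1) for each enzyme, in WT (circles) and Pctp-/- mice (squares), with 95% confidence intervals from limma. Filled symbols passed the adjusted p threshold. Lpin1 and Gpat4 are filled on the left in both genotypes, Agpat2 and Dgat2 are filled in WT, and Mogat1 is filled in Pctp-/- mice.

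Lpin1 (ENSMUSG00000020593, chr12:16535669-16610966, minus strand) encodes lipin 1, a phosphatidate phosphatase that also acts in the nucleus as a coactivator of PPARα. WT mice on chow had 67.3, 69.4 and 48.1 FPKM and WT mice on the MCD diet 11.3, 15.6 and 19.2 FPKM. Every MCD mouse was below every chow mouse, by a ratio of means of 4.01. It differed by -1.95 on the log2 scale (standard error 0.37, limma adjusted p = 7.5e-04), and 1.09% of the tested genes had a lower value. Lpin1 in Pctp-/- mice went from 15, 33.7 and 45.7 FPKM on chow to 9.6, 21 and 10.4 FPKM on the MCD diet. Here the groups overlapped, since one chow mouse at 15 lay below one MCD mouse at 21. This was a log2 difference of -1.10 (standard error 0.37, limma adjusted p = 0.0258). This call was lost in 6 of 24 alternative fits, among them those without the chow mouse at 45.7 FPKM (difference -0.77, adjusted p = 0.109), without the chow mouse at 33.7 (-0.98, adjusted p = 0.0809) and without either MCD mouse near 10 (-0.90 and -0.95, adjusted p = 0.0976 and 0.0871). Without the chow mouse at 15 the difference was -1.54 (adjusted p = 0.0016).

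Lpin2 (ENSMUSG00000024052, chr17:71182560-71249817, plus strand) encodes the other main lipin of the liver. It was at 40.4, 45.7 and 64.8 FPKM in WT mice on chow and at 45.7, 51.2 and 41.2 on the MCD diet. Its values overlapped between the diets in both genotypes. The log2 difference was -0.10 in WT mice (95% interval -0.61 to 0.41) and 0.08 in Pctp-/- mice (-0.43 to 0.60), and its sign turned in some alternative fits. Both enzymes act at the same step. Their ratio within a library does not depend on scaling between libraries, though diet and sequencing set still cannot be told apart. The ratio of Lpin1 to Lpin2 was 0.616 to 1.67 in the 6 chow libraries and 0.247 to 0.465 in the 6 MCD libraries, without overlap. Its log2 difference was -1.58, with p = 0.00216 in an exact two-sided permutation test of 6 against 6, the smallest p the test can give, and 0.00864 after adjustment over the 4 ratios tested. Within genotypes it was -1.91 in WT and -1.24 in Pctp-/- mice, each with an exact permutation p = 0.1, the smallest that 3 mice against 3 allow.

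Gpat4 (ENSMUSG00000031545, chr8:23171265-23208346, minus strand) encodes the GPAT of the endoplasmic reticulum with the highest mean share of the first step on chow. It was at 47.7, 48.3 and 46.1 FPKM in WT mice on chow and at 27.7, 28.8 and 30.3 on the MCD diet. Gpat4 in Pctp-/- mice was at 39.5, 40.6 and 45 on chow and at 25.4, 31 and 28.5 on the MCD diet. All 6 MCD mice were below all 6 chow mice. It differed by -0.69 in WT (standard error 0.09, limma adjusted p = 5.1e-05) and -0.54 in Pctp-/- mice (standard error 0.09, adjusted p = 3.7e-04), the smallest standard error of any member. Gpam (ENSMUSG00000024978, chr19:55067268-55127238, minus strand) encodes the GPAT of the outer mitochondrial membrane, a known target of insulin and SREBP signalling. Its FPKM was 37.1, 23.2 and 34.3 in WT mice on chow and 45.7, 36.7 and 34.2 on the MCD diet, with overlap. Its log2 difference was 0.31 in WT (95% interval -0.27 to 0.89) and 0.15 in Pctp-/- mice (-0.43 to 0.73). Gpam in Pctp-/- mice on chow was at 54.6, 26.4 and 23.4 FPKM, and the mouse at 54.6 was the one with the lowest Lpin1 on chow. Without that mouse the difference in Pctp-/- mice was 0.52 (adjusted p = 0.0397).

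The ratio of Gpam to Gpat4 was 0.48 to 0.777 in WT and 0.52, 0.651 and 1.38 in Pctp-/- mice on chow, and 1.13 to 1.65 in the MCD libraries. The mouse at 1.38 overlapped with the MCD range. The log2 difference between the diets was 0.88 (exact permutation p = 0.013, adjusted p = 0.0203 over the 4 ratios). It was 1.03 within WT (exact permutation p = 0.1) and 0.72 within Pctp-/- mice (exact permutation p = 0.4), and 1.07 without the Pctp-/- chow mouse at 1.38. On chow Gpam made up 0.667 ± 0.163 (SD, n = 3) of the level of Gpat4 in WT mice, and on the MCD diet 1.35 ± 0.267 (SD, n = 3).

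**Figure D3:**
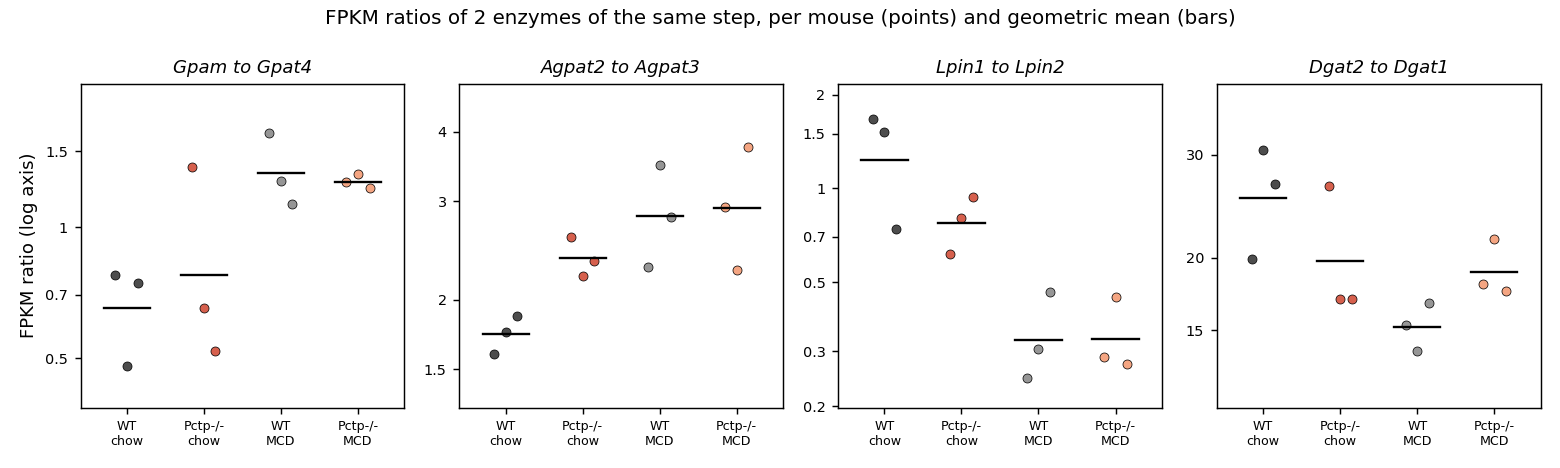
Ratio of the FPKM of 2 enzymes of one step in each mouse, by group, on logarithmic axes. Points are mice (n = 3 a group) and bars the geometric mean. The Lpin1 to Lpin2 ratio is at most 0.465 in the 6 MCD mice and at least 0.616 in the 6 chow mice, and the Gpam to Gpat4 ratio is above 1 in all 6 MCD mice and in 1 of 6 chow mice.

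Agpat2 (ENSMUSG00000026922, chr2:26593057-26604417, minus strand) encodes the AGPAT whose loss causes generalized lipodystrophy. It was the one member that rose with the diet in WT mice, from 97.6, 85.7 and 95.7 FPKM on chow to 134, 202 and 170 FPKM on the MCD diet. The groups did not overlap, the ratio of means was 1.81, and the log2 difference was 0.83 (standard error 0.16, limma adjusted p = 9.2e-04). The values in Pctp-/- mice were 149, 118 and 123 FPKM on chow and 145, 127 and 183 on the MCD diet. These overlapped, with a log2 difference of 0.21 (95% interval -0.14 to 0.57, adjusted p = 0.293). The exons of Agpat2 overlap those of Egfl7 on the opposite strand, and the sources used here do not say whether reads were counted by strand. Egfl7 was at 6.62 to 10.6 FPKM over the 12 libraries, far below Agpat2, and its log2 difference with the diet was -0.04 in WT mice (adjusted p = 0.861).

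Agpat1 (ENSMUSG00000034254, chr17:34604262-34613449, plus strand), which acts at the same step, was at 9.5, 8.84 and 8.27 FPKM in WT mice on chow and at 7.14, 6.82 and 6.45 on the MCD diet. The groups did not overlap, but the log2 difference of -0.34 (95% interval -0.65 to -0.02) missed the threshold with a limma adjusted p of 0.0629. It passed in 6 of 24 alternative fits, with -0.42 (adjusted p = 0.00983) under quantile normalization, -0.45 (0.031) with each library rescaled to a common sum and -0.46 (0.00783) under median-of-ratios scaling. Agpat1 in Pctp-/- mice was at 5.79, 9.92 and 8.43 FPKM on chow and at 6.02, 6.25 and 6.43 on the MCD diet. The log2 difference was -0.29 (95% interval -0.61 to 0.02), or -0.49 (adjusted p = 0.0021) without the chow mouse at 5.79, the same animal that stood out in Lpin1 and Gpam. It was also called under median-of-ratios scaling (-0.33, adjusted p = 0.042). The exons of Agpat1 overlap those of Egfl8 on the opposite strand, which was at 0.269 to 0.702 FPKM.

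Agpat3 (ENSMUSG00000001211, chr10:78269178-78352489, minus strand), an acyltransferase of the endoplasmic reticulum and Golgi, overlapped between the diets in both genotypes. WT mice had 60.8, 48.9 and 51.2 FPKM on chow and 58.3, 58.1 and 60.3 on the MCD diet, with a log2 difference of 0.14 (95% interval -0.07 to 0.35). Pctp-/- mice had 57.6, 53.6 and 52.3 FPKM on chow and 49.5, 56.5 and 48.8 on the MCD diet, with a difference of -0.08 (95% interval -0.29 to 0.13). Its exons overlap those of Gm40709 on the opposite strand, which was not analysed here. It was called in WT mice in 1 of 24 alternative fits, without the chow mouse at 60.8 FPKM (0.23, adjusted p = 0.044). The ratio of Agpat2 to Agpat3 was 1.6 to 2.59 on chow and 2.26 to 3.75 on the MCD diet. Its log2 difference was 0.50 (exact permutation p = 0.0152, adjusted p = 0.0203 over the 4 ratios), 0.70 within WT and 0.30 within Pctp-/- mice (exact permutation p = 0.1 and 0.3).

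Dgat2 (ENSMUSG00000030747, chr7:99153658-99182719, minus strand), which esterifies newly made fatty acids, fell in WT mice. Chow mice had 299, 473 and 402 FPKM and MCD mice 238, 281 and 282 FPKM, without overlap. The log2 difference was -0.53 (standard error 0.15, limma adjusted p = 0.009), and it lay between -0.71 and -0.38 when single libraries were left out. Dgat2 in Pctp-/- mice was at 345, 294 and 297 FPKM on chow and 270, 309 and 306 on the MCD diet. The difference there was -0.08 (95% interval -0.40 to 0.24). Dgat1 (ENSMUSG00000022555, chr15:76502015-76511953, minus strand) encodes the structurally unrelated enzyme of the same reaction. It was at 15.1, 15.5 and 15.1 FPKM in WT mice on chow and at 15.6, 20.4 and 16.9 on the MCD diet. Each MCD mouse was above each chow mouse, but the log2 difference of 0.19 (95% interval -0.09 to 0.47) did not pass (limma adjusted p = 0.22). The difference in Pctp-/- mice was -0.02 (95% interval -0.30 to 0.26). The ratio of Dgat2 to Dgat1 was 17 to 30.6 on chow and 13.8 to 21.5 on the MCD diet, a log2 difference of -0.40 with an exact permutation p of 0.0584. It was -0.73 within WT mice (exact permutation p = 0.1) and -0.06 within Pctp-/- mice (exact permutation p = 1). Without any one of 3 Pctp-/- mice, 2 on chow and 1 on the MCD diet, that p was 0.0346.

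Mogat1 (ENSMUSG00000012187, chr1:78510991-78538173, plus strand) encodes a monoacylglycerol acyltransferase. WT mice had 0.685, 0.426 and 0.997 FPKM on chow and 0.556, 0.66 and 0.599 on the MCD diet, with a log2 difference of -0.07 (95% interval -0.40 to 0.26). Pctp-/- mice had 1.01, 0.497 and 0.732 FPKM on chow and 0.217, 0.056 and 0.299 on the MCD diet. The latter groups did not overlap, with a log2 difference of -0.55 (standard error 0.15, limma adjusted p = 0.00957). At such low FPKM the added 1 compresses the scale, and with 0.1 in its place the difference was -1.60 (adjusted p = 0.00584). The exons of Mogat1 overlap those of BC035947 on the opposite strand, which was at 0 to 0.0677 FPKM on chow. On the MCD diet BC035947 was at 0.137 to 0.38 FPKM in WT and at 0.0347 to 0.135 FPKM in Pctp-/- mice. Its part in the Mogat1 values was not tested.

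Groups that did not overlap were counted as well. Between the diets 6 members did not overlap in WT mice and 2 in Pctp-/- mice, where 63.7% and 59.7% of all tested genes did not overlap. By genotype 3 members did not overlap on chow and 3 on the MCD diet, where the shares of all genes were 10.6% and 26.6%.

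The second question was whether loss of PC-TP altered these enzymes on either diet. On chow 0 of the 10 members passed (limma), as against 0.136% of all genes tested, and 2 had an unadjusted p under 0.05, Lpin1 and Agpat2, as did 6.98% of all genes. On the MCD diet 0 of 10 passed (limma), as against 0.818% of all genes, and 1 had an unadjusted p under 0.05, Mogat1, as did 16.3% of all genes. No member passed in any of the 24 alternative fits on either diet. The calls over all genes were 7 higher and 10 lower on chow, or 6 and 14 with libraries rescaled to a common sum, and 37 higher and 65 lower on the MCD diet, or 69 and 41 after quantile normalization. The median log2 difference of the members was -0.06 on chow and -0.15 on the MCD diet, beside 0.006 and -0.09 over all genes.

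Lpin1 showed the widest genotype difference on chow. Its 3 Pctp-/- values (15, 33.7 and 45.7 FPKM) all lay below the 3 WT values (67.3, 69.4 and 48.1 FPKM), a ratio of means of 1.96. The log2 difference was -1.06 (95% interval -1.86 to -0.26, limma adjusted p = 0.47), and it was -0.62 without the Pctp-/- mouse at 15 FPKM. The difference on the MCD diet was -0.21 (95% interval -1.01 to 0.59). The summed FPKM of the 3 lipins was 110 to 116 in WT mice on chow and 41.2, 77.7 and 95.7 in Pctp-/- mice on chow, while Lpin2 alone overlapped between the genotypes (log2 difference -0.41, 95% interval -0.92 to 0.10).

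Agpat2 was higher in all 3 Pctp-/- mice than in all 3 WT mice on chow, with a log2 difference of 0.47 (95% interval 0.12 to 0.83, limma adjusted p = 0.464). Its values on the MCD diet overlapped between genotypes (-0.15, 95% interval -0.50 to 0.21). Gpat4 did not overlap on chow either, with a log2 difference of -0.18 (95% interval -0.38 to 0.02, adjusted p = 0.743). Mogat1 did not overlap on the MCD diet, where Pctp-/- mice had 0.217, 0.056 and 0.299 FPKM and WT mice 0.556, 0.66 and 0.599. The log2 difference was -0.44 (95% interval -0.76 to -0.11, limma adjusted p = 0.183), and -1.38 (adjusted p = 0.138) with 0.1 added in place of 1. Agpat1 (-0.11, 95% interval -0.42 to 0.21) and Agpat3 (-0.19, 95% interval -0.40 to 0.02) also did not overlap on the MCD diet. The remaining values are in the plot of the genotype effects, where the intervals of Gpam, Lpin2, Dgat1 and Dgat2 span 0 on both diets.

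**Figure D4:**
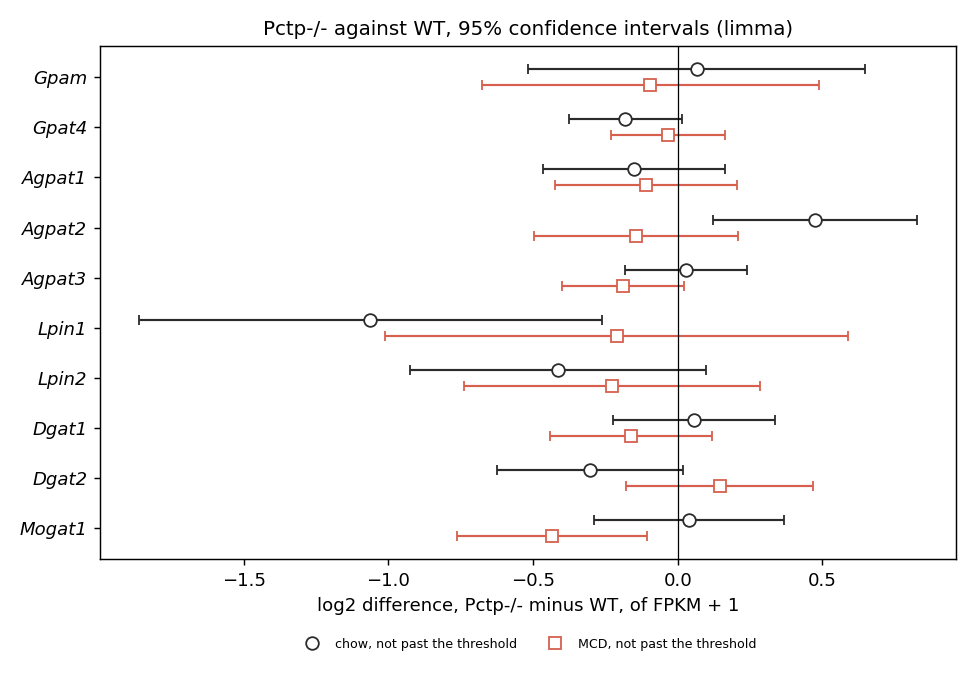
Difference between Pctp-/- and WT mice in log2(FPKM + 1) for each enzyme on chow (circles) and on the MCD diet (squares), with 95% confidence intervals from limma. All symbols are open because 0 members passed the adjusted p threshold. The intervals that do not reach 0 are those of Lpin1 (-1.86 to -0.26) and Agpat2 (0.12 to 0.83) on chow and of Mogat1 (-0.76 to -0.11) on the MCD diet.

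An interaction term tested if diet acted differently in WT and Pctp-/- livers. In that test 0 of the 10 members passed (limma), beside 0.0963% of all genes, and 2 had an unadjusted p under 0.05, beside 15.1% of all genes. The calls over all genes were 5 higher and 7 lower, or 13 and 5 with quantile normalization, 6 and 5 with libraries rescaled to a common sum and 5 and 1 under median-of-ratios scaling. For Agpat2 the difference of the diet effects, Pctp-/- minus WT, was -0.62 on the log2 scale (95% interval -1.12 to -0.12, limma adjusted p = 0.23). For Mogat1 it was -0.48 (95% interval -0.94 to -0.01, adjusted p = 0.318), for Dgat2 0.45 (-0.01 to 0.90, adjusted p = 0.338) and for Lpin1 0.85 (-0.28 to 1.98, adjusted p = 0.467). The calls of Agpat2 and Dgat2 in WT mice and of Mogat1 in Pctp-/- mice are therefore not shown to be particular to one genotype. Both diet effects and both genotype effects draw on the same 4 groups and are not independent of each other.

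The other isoenzymes of the pathway, a list of 8 genes, were set beside the members at each step. In WT mice all 7 that could be tested were called higher on the MCD diet, beside 34.5% of all genes tested. Their median log2 difference was 0.69, beside 0.11 over all genes. The rises in Gpat3 (1.92, limma adjusted p = 4.3e-07), Mogat2 (1.53, adjusted p = 2.6e-04), Lpin3 (0.87, adjusted p = 0.00367) and Lclat1 (0.69, adjusted p = 3.6e-04) led them. In Pctp-/- mice 4 of 7 were called higher, beside 26.0% of all genes tested. They were Gpat3 (1.25, adjusted p = 1.4e-05), Mogat2 (0.98, adjusted p = 0.00578), Lclat1 (0.81, adjusted p = 1.4e-04) and Agpat4 (0.34, adjusted p = 0.0306). Lpin3 (0.17), Agpat5 (0.17) and Tmem68 (0.29) had positive differences that were not called. The median of the 7 was 0.34, beside 0.04 over all genes. Gpat2 did not reach the filter, with a mean of 0.379 FPKM. Mogat2 passed it only through the MCD groups, so its calls by diet are not independent of the filter. Its means in WT and Pctp-/- mice were 0.078 and 0.165 FPKM on chow and 2.34 and 1.31 on the MCD diet.

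Gpat3, a GPAT of the endoplasmic reticulum known from adipose tissue, was at 4.62, 4.13 and 5.69 FPKM in WT mice on chow and 19.6, 24.2 and 19.2 on the MCD diet. Pctp-/- mice had 5.67, 4.24 and 4.77 FPKM on chow and 13.1, 13.8 and 12 on the MCD diet, below all 3 WT mice on that diet. The genotype difference of -0.65 (standard error 0.13, limma adjusted p = 0.0467) was called, but in 5 of 24 alternative fits only, with adjusted p from 0.0317 to 0.18. The interaction for Gpat3 was -0.67 (adjusted p = 0.143). The summed FPKM of the GPAT genes was 84.1 ± 7.16 (SD, n = 3) in WT mice on chow and 89.1 ± 4.92 on the MCD diet. Within it the share of Gpat4 was 56.6% ± 5.85 on chow and 32.6% ± 3.28 on the MCD diet, that of Gpat3 5.72% ± 0.778 and 23.6% ± 3.04, and that of Gpam 37.2% ± 5.85 and 43.5% ± 4.66 (SD, n = 3). The share of Gpat3 in Pctp-/- mice was 6.01% ± 0.418 on chow and 16.7% ± 1.49 on the MCD diet (SD, n = 3). The sums and shares were not tested.

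At the lipin step the sum was 113 ± 3.5 FPKM on chow and 65 ± 4.37 FPKM on the MCD diet (SD, n = 3) in WT mice, with Lpin1 at 54.4% ± 10.6 and 23.7% ± 6.25 of it. That share in Pctp-/- mice was 42.5% ± 5.71 on chow and 24% ± 5.5 on the MCD diet. At the AGPAT step the sum of Agpat1 to Agpat5 in WT mice was 157 ± 12.4 FPKM on chow and 237 ± 33.6 on the MCD diet. Agpat2 held 59.3% ± 1.74 and 70.8% ± 4.4 of it. Lclat1, at means of 10 and 16.8 FPKM in the same groups, and Tmem68 were in no step sum. Dgat2 held 93.2 to 96.8% of the DGAT sum in every library. At the MGAT step Mogat2 was at 0.042 to 0.257 FPKM on chow and 1.05 to 4.25 on the MCD diet. The share of Mogat1 was 65.9 to 93.5% in the chow libraries and 4.21 to 32.1% in the MCD libraries, of a sum that was at most 4.8 FPKM. The shares are shown for each mouse in the plot of isoenzyme composition.

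**Figure D5:**
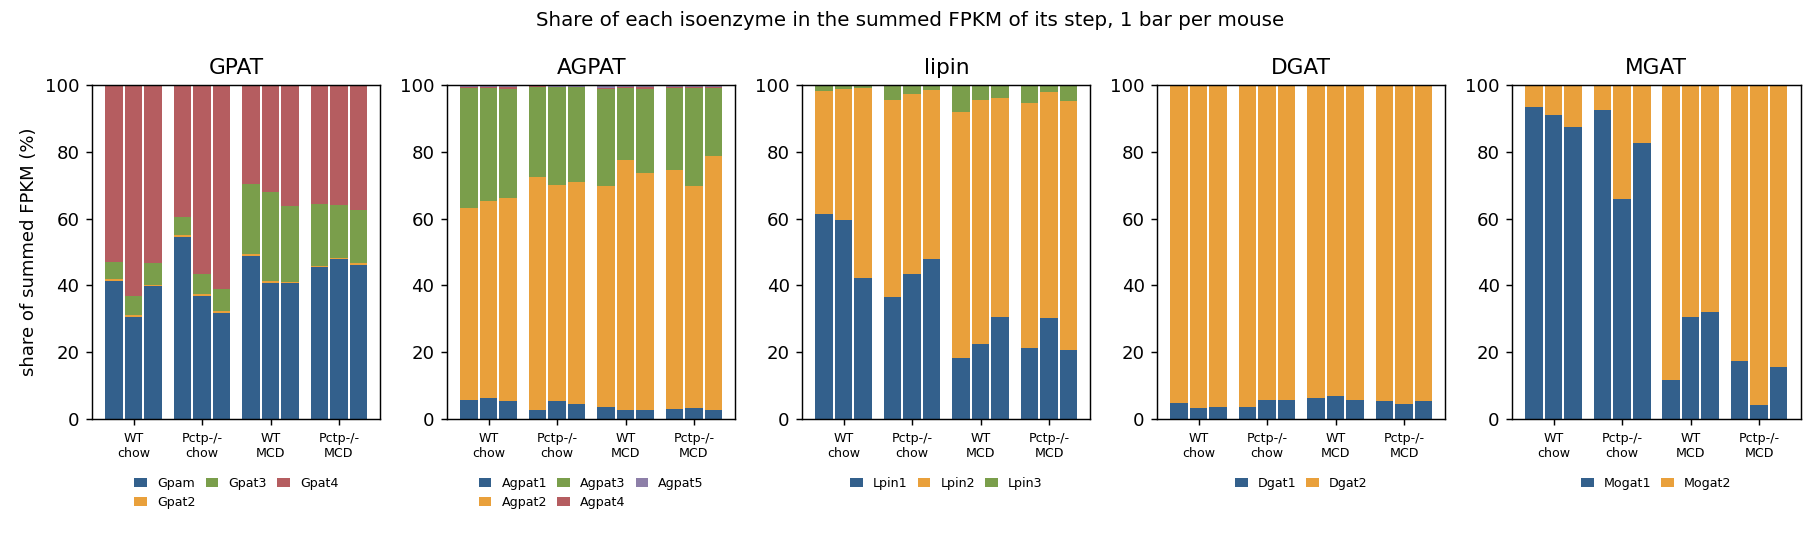
Share of each isoenzyme in the summed FPKM of its step, in percent, with 1 stacked bar per mouse and 1 panel per step. On the MCD diet the bars hold less Gpat4 and Lpin1 and more Gpat3 than on chow in the group means, and the MGAT bars are mostly Mogat1 on chow and mostly Mogat2 on the MCD diet. Dgat2 fills at least 93.2% of each DGAT bar. Lclat1 and Tmem68 are in no bar.

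Around the pathway, 14 genes of substrate supply were listed, of which 12 were tested. They make glycerol 3-phosphate, take up fatty acids and activate them to acyl-CoA. In WT mice 4 were higher and 4 lower on the MCD diet, with Slc27a5 (-2.41), a bile acid and fatty acid CoA ligase, and Slc27a2 (-1.52), a very long-chain acyl-CoA synthetase, lower and the acyl-CoA synthetases Acsl3 (1.69) and Acsl4 (1.68) higher. In Pctp-/- mice 5 were higher and 6 lower, with Slc27a5 at -1.83, glycerol kinase Gk at 1.37, Acsl3 higher and Slc27a2 at -0.92. Of 15 genes that use phosphatidate and diacylglycerol for phospholipids or signalling, 12 were tested. In WT mice 4 were higher and 5 lower, led by the lipid phosphatases Plpp1 (1.57) and Plpp2 (1.08), the diacylglycerol kinase Dgkz (-0.80) and Cept1 (0.74), an enzyme of phosphatidylcholine and phosphatidylethanolamine synthesis. In Pctp-/- mice 2 were higher, Plpp1 (1.16) and Cept1 (0.59), and 2 lower, Dgkz (-0.97) and Chpt1 (-0.50). By genotype 0 genes of either list passed on chow or on the MCD diet (limma), with 2, 6, 0 and 2 at an unadjusted p under 0.05 for substrate supply on chow and MCD and for the phosphatidate list on chow and MCD. Over all genes the shares at that level were 6.98% on chow and 16.3% on the MCD diet. By diet, 57.0% of all genes were called in WT and 50.3% in Pctp-/- mice. Aqp7, counted among the substrate genes higher in both genotypes, passed the filter only through the MCD groups. Its means in WT and Pctp-/- mice were 0.014 and 0 FPKM on chow and 1.68 and 0.769 on the MCD diet.

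All 11 listed regulators of the pathway were tested. In WT mice 3 were higher and 4 lower on the MCD diet, and in Pctp-/- mice 1 was higher and 4 lower. Among all genes tested, 57.0% and 50.3% were called in these comparisons. Srebf1, the transcriptional activator of fatty acid and triglyceride synthesis, was lower on the MCD diet, by a log2 difference of -2.10 in WT mice (limma adjusted p = 8.3e-06) and of -2.04 in Pctp-/- mice (adjusted p = 1.4e-05). Mlxipl, the carbohydrate response factor ChREBP, fell by 1.16 in WT mice (adjusted p = 0.0097). Ppargc1a, the coactivator with which lipin 1 acts, rose by 1.04 in WT (adjusted p = 7.7e-05) and 1.35 in Pctp-/- mice (adjusted p = 1.5e-05). Ppard, which encodes PPARδ, fell by 0.84 in WT (adjusted p = 6.5e-04) and by 1.26 in Pctp-/- mice (adjusted p = 4.3e-05). Insig1, a regulator of SREBP processing, fell by 0.48 in Pctp-/- mice (adjusted p = 0.0233). By genotype 0 regulators passed on either diet (limma), beside 0.136% of all genes on chow and 0.818% on the MCD diet. At an unadjusted p under 0.05 there were 0 on chow and 2 on the MCD diet, beside 6.98% and 16.3% of all genes. Some genes named from these lists and the clock list have exons that overlap annotated genes on the opposite strand. They are Gpat3, Agpat5, Mogat2, Gk, Slc27a2, Plpp1, Cept1, Chpt1, Dgkz, Srebf1, Mlxipl, Arntl, Dbp, Tef and Bhlhe41. The exons of Gpat3, Acsl3 and Srebf1 overlap genes on the same strand.

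Because hepatic Lpin1 is known to vary over the day, 18 clock genes were listed beside it. On chow 3 of 18 were called lower in Pctp-/- than in WT mice, Dbp, Per3 and Bhlhe41, beside 0.0802% of all genes. An unadjusted p under 0.05 was held by 14 of 18 (6.98% of all genes). The median log2 difference was -0.66 over the list and 0.006 over all genes. Dbp was at 39.5, 98.3 and 86 FPKM in WT and 5.58, 9.85 and 5.64 in Pctp-/- mice on chow, a log2 difference of -3.18 (limma adjusted p = 0.0492). On the MCD diet 0 of 18 passed by genotype (limma), 3 had an unadjusted p under 0.05 (16.3% of all genes) and the list median was 0.09. Each of the 3 genes called on chow was called in 8 of its 23 or 24 alternative fits. With the diet, 2 clock genes were called higher and 10 lower in WT mice, beside 34.5% and 22.5% of all genes. Dbp (-2.60), Per1 (-2.06), Tef (-1.50) and Bhlhe41 (-1.31) were among the lower, and the list median was -0.97. In Pctp-/- mice 2 were called higher, Per3 (1.36) and Nr1d2 (1.17), and 4 lower, among them Nfil3 (-2.18) and Per1 (-1.51). Of all genes 26.0% were called higher and 24.4% lower there, and the list median was 0.20. Like the difference of Lpin1, the list median was negative between the genotypes on chow and between the diets in WT mice. With the diet in Pctp-/- mice the list median was positive, at 0.20, while Lpin1 was lower (log2 difference -1.10). There Dbp, Per3 and Bhlhe41 had positive differences, of which that of Per3 was called. On chow Arntl, Nfil3 and Npas2 were among clock genes with a higher mean in Pctp-/- than in WT mice. The part of the clock genes in the differences of Lpin1 was not tested.

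Markers of other cells also moved with the diet. For comparison, 34.5% of all genes tested were called higher on the MCD diet in WT and 26.0% in Pctp-/- mice. The summed FPKM of 8 macrophage and leukocyte markers was 40.5 to 101 on chow and 203 to 449 on the MCD diet. Of 7 tested, 6 were called higher in WT mice and 4 in Pctp-/- mice. Itgax, counted in both, passed the filter only through the MCD groups. Its means in WT and Pctp-/- mice were 0.0807 and 0.118 FPKM on chow and 2.49 and 2.69 on the MCD diet. Of 7 stellate cell and fibroblast markers, summing to 32.1 to 59.4 on chow and 136 to 199 on the MCD diet, 4 were called higher in WT and 3 in Pctp-/- mice. Most of that sum was Dcn, at 23 to 42.3 FPKM on chow and 114 to 155 FPKM on the MCD diet. Acta2, Col1a1 and Col3a1 were called in neither genotype. The 7 adipocyte markers summed to 7.38 to 9.66 FPKM on chow, 36.4 to 82.9 in WT mice and 19 to 32.5 in Pctp-/- mice on the MCD diet. The 2 that were tested, Cidec and Fabp4, were called higher in both genotypes. The defining adipocyte genes Lep, at 0 in all libraries, Plin1 and Adipoq, at up to 0.0219 and 0.0651 FPKM, were at or near 0. Of the 5 endothelial markers 1 was called higher in WT mice and 0 in Pctp-/- mice. The 4 tested cholangiocyte markers had 1 call in each genotype, Spp1 higher in WT and Sox9 lower in Pctp-/- mice. The part of these cells in the rises of Gpat3, Mogat2 and Agpat2 was not tested. By genotype 0 cell type markers passed on either diet (limma), beside 0.136% of all genes on chow and 0.818% on the MCD diet. At an unadjusted p under 0.05 there were 0 on chow and 4 on the MCD diet, beside 6.98% and 16.3% of all genes.

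The genes whose pattern over the 4 groups lay nearest to that of Lpin1 were Klf13, Csrnp1 and Alas1, at a root mean square distance of 0.115, 0.127 and 0.17 between the centred group means on the log2 scale, over 12 libraries. Klf13, a zinc finger transcription factor, was at 21.5 ± 3.05, 11.4 ± 1.63, 5.53 ± 0.517 and 5.29 ± 0.843 FPKM (SD, n = 3) in WT and then Pctp-/- mice on chow, and in WT and then Pctp-/- mice on the MCD diet. Alas1, the rate-limiting enzyme of heme synthesis, was at 309 ± 80.4, 185 ± 113, 74 ± 12.1 and 57.3 ± 33.4 FPKM (SD, n = 3) in the same order. The exons of Csrnp1 and Alas1 overlap antisense genes. The likeness is a description of 4 means and was not tested.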

How the data were processed

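Liver RNA of 12 mice in 4 groups of 3 was sequenced by Novogene. For every gene and library the authors deposited an FPKM value, computed on mm10 as named in the submitters' processing notes, beside a table of read statistics. The aligner, the counting tool and its use of strand are not given in the sources used here. FPKM values are not counts, so limma 3.58.1 in R 4.3.3 modelled log2(FPKM + 1) by the 4 group means, with a mean-variance trend and no replicate block, in place of the study's Wald test. Of 35275 genes, the 12466 averaging 0.5 FPKM or more were tested, and Benjamini-Hochberg adjustment covered all of them, with a threshold of 0.05 and no minimum fold change. Ratios were compared by exact permutation tests (scipy 1.17.1). The fit and the permutation test were checked on simulated data. Symbols matched 34490 identifiers, positions and coding sequence came from GENCODE M21 and promoters from RefSeq. Members and lists were chosen with earlier results of these data known. Named are all members, Pctp, the called genes of each list with the largest change (at most 4 a comparison) and the 3 genes nearest to members that changed by at least 1. Further genes were picked by name once values were known. The alternatives were the pseudocount, filter, scaling, libraries in the fit, replicate block, limma options, a minimum fold change and leaving out each library.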

Additional observations from a re-analysis of the deposited data

Results flagged for a closer look

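Among the genes set beside the enzymes, 5 had effects that ran in opposite directions in the 2 genotypes or on the 2 diets, with no overlap of the mice in either. The share of all tested genes that meet this rule was not counted. Groups did not overlap by diet in 63.7% of all genes in WT and 59.7% in Pctp-/- mice. By genotype that share was 10.6% on chow and 26.6% on the MCD diet. For 4 of them this was the effect of the MCD diet, which in WT and in Pctp-/- mice was 1.01 and -0.79 on the log2 scale for Arntl, -1.31 and 0.65 for Bhlhe41, -1.20 and 1.36 for Per3 and 1.08 and -0.17 for Pctp itself. For Plpp2 it was the effect of genotype, at 0.15 on chow and -0.72 on the MCD diet. The difference of the effects was tested as an interaction in limma, and it missed the threshold in each, with -1.81 for Arntl (adjusted p = 0.0953), 1.96 for Bhlhe41 (0.0775), 2.56 for Per3 (0.0675), -1.26 for Pctp (0.132) and -0.86 for Plpp2 (0.127). The interaction passed in 5 of 22 alternative fits for Per3, 2 of 22 for Arntl, 1 of 22 for Bhlhe41, 1 of 23 for Plpp2 and 0 of 22 for Pctp, with lowest adjusted p of 0.00708, 0.0457, 0.0457, 0.0404 and 0.0628. Pctp is the gene deleted in the Pctp-/- mice. In these its lowest value on chow, 0.33 FPKM, lay just above its highest on the MCD diet, 0.329 FPKM. None of the 10 enzymes behaved in this way.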

How the results depend on the processing

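The 4 calls of the diet in WT mice and those of Gpat4 and Mogat1 in Pctp-/- mice held in every alternative that tested them, apart from a minimum log2 change of 1, which left Lpin1 as the 1 call in each genotype. The values carry no counts, the use of strand is not given, and diet and sequencing set cannot be told apart.

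The count of genes called by genotype on chow was 10 without a filter, 11 at an FPKM of at least 5 and 4 with 6 libraries in the fit (8 to 34 when single libraries were left out). On the MCD diet it was 55 after median-of-ratios scaling, 19 with 6 libraries and 33 with the minimum change (27 to 173, the extremes without Pctp-/- replicate 2 and without WT replicate 3). For the diet it was 4448 and 1777 in WT and 4047 and 1343 in Pctp-/- mice at FPKM 5 and with the minimum change (6171 to 7492 and 5254 to 6516), with 4 to 5 and 2 to 5 members called. For the interaction it was 3 and 4 with 0.1 and 0.5 added, 6 after median-of-ratios scaling, 18 after quantile normalization and 7 without the trend (0 to 60).

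Signs turned for small differences. After quantile normalization the genotype effect was -0.0031 for Agpat3 on chow, and 0.0087 for Gpam, 0.0722 for Gpat4 and 0.0034 for Agpat1 on the MCD diet, and the diet effect was 0.0142 for Dgat1 in Pctp-/- mice. After median-of-ratios scaling the genotype effect on the MCD diet was 0.0124 for Gpam and 0.0729 for Gpat4, and the diet effect in WT mice -0.0014 for Agpat3. When single libraries were left out, the genotype effect on chow ran from -0.303 to 0.2916 for Gpam, -0.301 to 0.0423 for Agpat1, -0.0337 to 0.1206 for Agpat3, -0.0147 to 0.1865 for Dgat1 and -0.0809 to 0.1621 for Mogat1, and on the MCD diet from -0.1905 to 0.0248 for Gpam and -0.0981 to 0.0402 for Gpat4. The diet effect ran from -0.2426 to 0.0927 for Lpin2 and -0.1933 to 0.0497 for Mogat1 in WT, and from -0.0754 to 0.5191 for Gpam, -0.2043 to 0.2807 for Lpin2 and -0.1546 to 0.0465 for Dgat1 in Pctp-/- mice. The interaction ran from -0.3859 to 0.2086 for Gpam, -0.1508 to 0.1925 for Agpat1 and -0.1026 to 0.3824 for Lpin2. The cause was not tested.

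The labels number the mice within each group and do not say that equal numbers pair them. Deviations of same-numbered mice correlated at -0.097 to 0.225, and 8 of 18 pairs were over 0.1. The same number gave the highest correlation in 21 of 36 comparisons of a mouse with another group, where an even spread over 3 numbers gives 12. In 3 of 12 mice the highest correlation with each of the other groups was to the mouse of the same number. With the replicate block 32, 115, 7202, 6430 and 59 genes were called by genotype on chow and on the MCD diet, by diet in WT and in Pctp-/- mice and in the interaction, with the same 0, 0, 4, 3 and 0 members. The paired ratio of Gpam to Gpat4 differed by 0.88 (exact sign-flip permutation p = 0.0625), which missed the threshold that the unpaired test passed. Within a genotype 3 mice against 3 cannot pass, and the ratio differences in WT and Pctp-/- mice were -1.91 and -1.24 for the lipins, 1.03 and 0.72 for Gpam to Gpat4, 0.70 and 0.30 for Agpat2 to Agpat3 and -0.73 and -0.06 for Dgat2 to Dgat1. When single libraries were left out, the difference of Dgat2 to Dgat1 over all mice ran from -0.47 to -0.30.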
